A study of Homo sapiens with 12 samples.

Results

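The 10 genes described here encode core parts of autophagy and of its mitochondrial form, mitophagy: ULK1, BECN1, ATG5, ATG7, MAP1LC3B, GABARAPL1, GABARAPL2, SQSTM1, OPTN and PINK1. They were taken by symbol from the 60649 genes counted in each library, and all 10 passed the filter on low counts. Poly(A)-selected RNA was sequenced from SBC3, an established human small cell lung cancer line grown as spheroids. The 12 libraries form 4 groups of 3: control, teriflunomide alone, lurbinectedin alone, and teriflunomide with lurbinectedin (the combination). Teriflunomide blocks DHODH, an enzyme of pyrimidine synthesis, and lurbinectedin is a DNA-binding inhibitor of transcription. The labels give neither dose nor exposure time, and all groups come from a single cell line. Nothing in the labels says that the libraries came from separate cultures, so p-values measure only the spread between these samples.

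Autophagy encloses cytoplasm in a double membrane that then fuses with lysosomes. The kinase ULK1 and the BECN1-bound lipid kinase start the membrane, ATG7 and ATG5 belong to the enzyme system that links ATG8 proteins such as LC3 and the GABARAPs to lipid, and receptors such as SQSTM1 and OPTN tether cargo to those proteins. In mitophagy PINK1 accumulates on damaged mitochondria and phosphorylates ubiquitin there, and receptors including OPTN then bind. Transcript levels do not measure autophagic flux.

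Total counts per library ranged from 23206414 to 33222162. Expression is given as CPM, the usual count unit scaled for depth, here from TMM-adjusted library sizes, and log2 fold changes come from edgeR fitted to all 16683 genes tested. The threshold for a call was 0.05 on p-values adjusted over those genes by the Benjamini-Hochberg method. The teriflunomide replicate 3 library stood apart: its correlation with another library of its group was as low as 0.977, against at least 0.986 within every other group, and 22.6% of its counts were mitochondrially encoded, against 8.42% and 8.43% in the other 2. Combination replicate 2 held 24.9%, against 14.6% and 13.1% in its group, while control libraries held 6.26% to 7.17% and lurbinectedin libraries 13.8% to 17.0%. Results that turn on these libraries are given with and without them. The neuroendocrine markers INSM1, NCAM1, UCHL1 and CHGA of small cell lung cancer stayed under 1 CPM in every library, while SYP averaged 16.8 CPM and YAP1 246 CPM in control. Leukocyte and endothelial markers all stayed under 1 CPM. The collagen genes COL1A1 and COL1A2 averaged 266 and 270 CPM in control, and the fibroblast marker DCN at most 0.0162 CPM in any group. In bulk RNA, fewer cells with a transcript and less transcript per cell cannot be told apart.

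Promoter sequence is shown for the members with the largest rises and the largest fall under lurbinectedin, and short stretches for both members whose windows held a stress-response motif. The sequences are RefSeq's, on GRCh38.p14, from the 250 bases before an annotated start. RefSeq windows were matched for 9 of the 10 members, with 13 windows in all. ULK1, SQSTM1 and ATG7 are given over the longest stretch that no deposited exon covered, on the plus strand, at chr12:131894372-131894621, chr5:179820707-179820877 and chr3:11272147-11272308. MAP1LC3B (chr16:87392279-87392308) and GABARAPL1 (chr12:10212836-10212865) are given over 30 bases around the match. Deposited exons covered all 250 bases of the MAP1LC3B window and 168 bases of the GABARAPL1 window. Capitals mark motif matches on either strand.
ULK1: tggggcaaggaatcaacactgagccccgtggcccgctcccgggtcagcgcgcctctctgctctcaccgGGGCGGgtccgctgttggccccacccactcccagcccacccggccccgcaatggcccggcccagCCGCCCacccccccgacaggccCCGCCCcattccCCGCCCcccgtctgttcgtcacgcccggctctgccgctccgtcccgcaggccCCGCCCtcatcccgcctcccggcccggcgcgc
SQSTM1: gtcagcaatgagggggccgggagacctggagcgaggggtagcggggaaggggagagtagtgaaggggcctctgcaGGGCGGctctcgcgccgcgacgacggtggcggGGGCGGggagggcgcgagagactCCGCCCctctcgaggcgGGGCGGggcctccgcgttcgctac
ATG7: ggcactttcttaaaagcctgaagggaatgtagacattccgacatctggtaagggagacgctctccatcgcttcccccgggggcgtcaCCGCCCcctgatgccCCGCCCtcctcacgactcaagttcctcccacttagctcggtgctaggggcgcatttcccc
MAP1LC3B: cgcgagtcaccTGACCAGGCtgcgggctga
GABARAPL1: ggctcgcggggTGACGTCAcagcccgacgc
The capitals in ULK1, SQSTM1 and ATG7 are GC boxes (GGGCGG), which Sp-family factors recognise. The ULK1 window held 5, this SQSTM1 window 4 and the ATG7 window 2, so genes that rose and a gene that fell both carried them, as did 42.6% of all 35116 promoters. The capitals in GABARAPL1 are a cyclic AMP response element (TGACGTCA) at -30 to -23 from the start, a motif in 1.65% of promoters. Those in MAP1LC3B are an antioxidant response element (TGACNNNGC) at -46 to -38, found in 10.9%. No window of the 9 members held the CACGTG core of the lysosomal CLEAR element, present in 6.35% of promoters, or the C/EBP-ATF element TGATGNAA, present in 3.14%. These matches describe letters and not binding.

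Lurbinectedin changed the RNA of most members, and not in 1 direction. Against control, 7 of the 10 rose (SQSTM1, ULK1, GABARAPL1, MAP1LC3B, BECN1, OPTN and GABARAPL2), ATG5 and ATG7 fell, and PINK1 was not called. The 9 calls stand against 71.6% of all genes tested, so the share called is not far from the background of this drug. Across all genes 36% were called higher and 35.7% lower. The median log2 fold change of the 10 was 0.83, against 0.05 over all genes tested. With library size as the only scaling the median over all genes was -0.18, and of all calls 39.2% were higher in place of 50.2%. Summed over the 3 fibroblast markers, control libraries held 519 to 549 CPM and lurbinectedin libraries 186 to 220 CPM. Nearly all of that sum was COL1A1 and COL1A2, as DCN was almost absent in every group. The neuroendocrine markers SYP, CHGB and NEUROD1 averaged 16.8, 3.01 and 4.03 CPM in control and 30.9, 8.72 and 1.62 CPM with lurbinectedin. Their part in the members' values was not tested. With mitochondrially encoded genes left out of the fit, 9 members were called. All comparisons with control use the same 3 control libraries. How often groups separate without overlap was not counted over all genes, so such statements about members are descriptions.

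**Figure D1:**
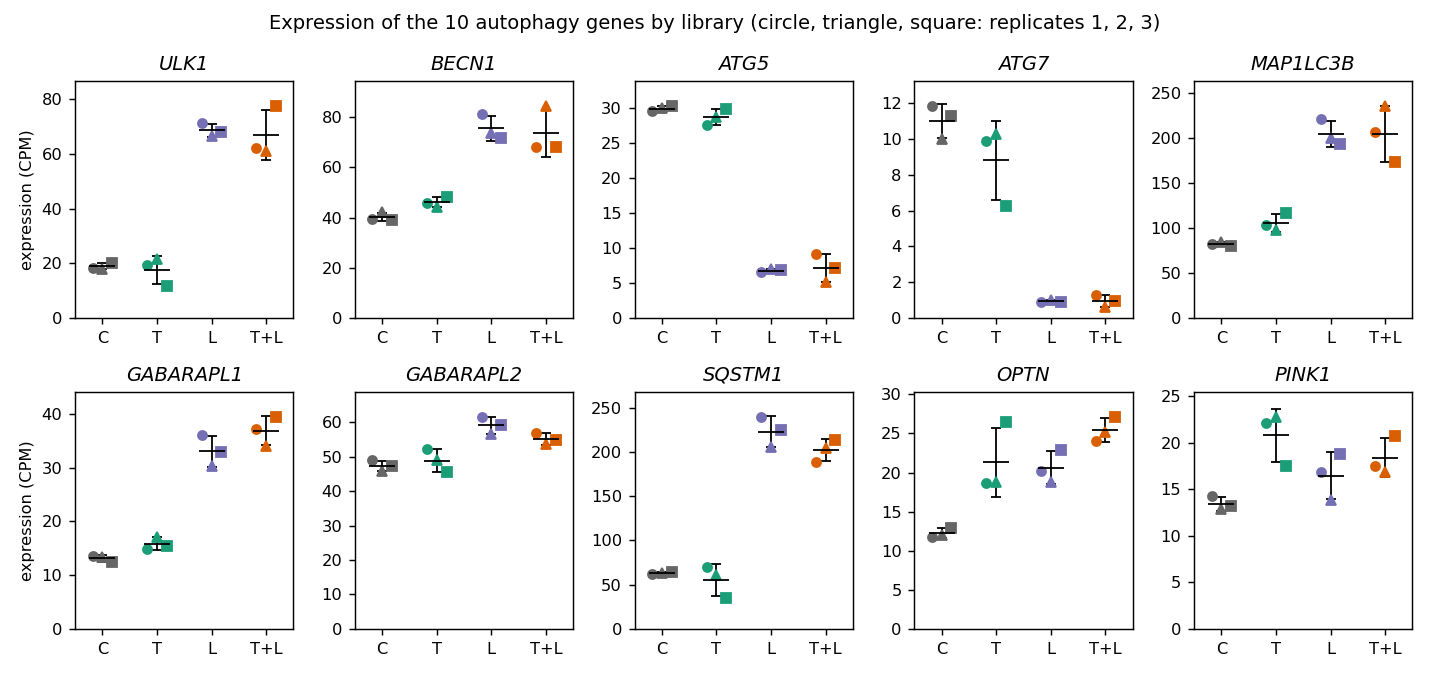
Expression in CPM (vertical axes, from 0) of each member in the 12 libraries, by group on the horizontal axes: control (C), teriflunomide (T), lurbinectedin (L) and combination (T+L). Symbols are libraries, long bars are means and whiskers are SD, n = 3. Control and lurbinectedin libraries do not overlap except for PINK1. Of all genes tested 71.6% were called under lurbinectedin, and overlap was not counted over them.

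ULK1 (ENSG00000177169.10, chr12:131894622-131923150, plus strand) encodes the kinase that starts autophagy. Its control libraries read 18.5, 18.2 and 20.3 CPM and its lurbinectedin libraries 71.3, 66.7 and 67.9 CPM. The combination gave 62.3, 61.2 and 77.4 CPM, and teriflunomide 19.6, 21.6 and 11.8 CPM. Every library with lurbinectedin lay above every library without it, and the lowest reading came from teriflunomide replicate 3. ULK1 rose 3.61-fold under lurbinectedin (log2 1.85, SE 0.183, edgeR adjusted p = 6.12e-07) and 3.53-fold under the combination (log2 1.82, SE 0.183, edgeR adjusted p = 8.90e-07).

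BECN1 (ENSG00000126581.13, chr17:42810134-42833350, minus strand) encodes the scaffold of the class III phosphatidylinositol 3-kinase complexes. Readings were 39.5, 42.2 and 39.0 CPM in control and 81.1, 73.6 and 71.7 CPM with lurbinectedin. They were 68.3, 84.3 and 68.1 CPM with the combination and 45.9, 44.3 and 48.3 CPM with teriflunomide. The lurbinectedin-treated libraries again lay wholly above the rest. BECN1 rose 1.87-fold under lurbinectedin (log2 0.91, SE 0.109, edgeR adjusted p = 4.40e-06) and 1.83-fold under the combination. Its exons share 300 bases, or 4.68% of their length, with PSME3 on the opposite strand, a gene that averaged 282 CPM in control and 422 CPM with lurbinectedin. Whether counting used strand is not given in the sources used here, so reads over such shared stretches cannot be assigned.

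ATG5 and ATG7 moved against the other members. ATG5 (ENSG00000057663.16, chr6:106045423-106325791, minus strand), which joins ATG12 in the complex that drives lipid attachment of ATG8 proteins, read 29.6, 29.9 and 30.2 CPM in control. With lurbinectedin it read 6.59, 6.96 and 6.83 CPM, and with the combination 9.16, 5.23 and 7.21 CPM. Teriflunomide libraries read 27.6, 28.7 and 29.9 CPM, within the control range or just under it. The lurbinectedin-treated libraries all lay far under the others. ATG5 fell by 2.14 on the log2 scale under lurbinectedin (SE 0.161, edgeR adjusted p = 4.06e-08), 4.40-fold lower than control, and it fell by 2.05 under the combination (edgeR adjusted p = 6.98e-08).

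ATG7 (ENSG00000197548.12, chr3:11272309-11557665, plus strand) encodes the E1-like enzyme that activates both ATG12 and the ATG8 proteins. It read 11.8, 9.96 and 11.3 CPM in control and 0.921, 1.02 and 0.909 CPM with lurbinectedin. The combination gave 1.27, 0.632 and 0.957 CPM, and teriflunomide 9.85, 10.3 and 6.27 CPM. It was the member with the largest fall, and its lowest count in any library was 15. ATG7 fell by 3.53 on the log2 scale under lurbinectedin (SE 0.245, edgeR adjusted p = 1.74e-08), 11.5-fold lower than control, and it fell by 3.51 under the combination (edgeR adjusted p = 2.03e-08). VGLL4 on the opposite strand shares 1597 bases with ATG7 exons, 18.1% of their length, and averaged 31.2 CPM in control and 10.2 CPM with lurbinectedin.

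The ATG8 members rose to different degrees. MAP1LC3B (ENSG00000140941.14, chr16:87383953-87404779, plus strand), which encodes the LC3 form most used to mark autophagosomes, read 82.5, 84.9 and 80.8 CPM in control and 222, 200 and 193 CPM with lurbinectedin. It read 207, 235 and 173 CPM with the combination and 103, 97.6 and 116 CPM with teriflunomide. No reading of a treated group overlapped control. MAP1LC3B rose 2.48-fold under lurbinectedin (log2 1.31, SE 0.117, edgeR adjusted p = 2.33e-07) and 2.48-fold under the combination. Its near-copy MAP1LC3B2 held 172 counts over all 12 libraries, at most 0.872 CPM in any, and the 2 genes may share reads.

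GABARAPL1 (ENSG00000139112.11, chr12:10212458-10223128, plus strand) encodes a GABARAP-type ATG8 protein. Control libraries read 13.5, 13.4 and 12.4 CPM, lurbinectedin libraries 36.0, 30.2 and 32.8 CPM, and combination libraries 37.1, 34.1 and 39.4 CPM. Teriflunomide libraries read 14.9, 17.2 and 15.5 CPM. All treated libraries lay above all control libraries, those with lurbinectedin by the widest margin. GABARAPL1 rose 2.52-fold under lurbinectedin (log2 1.33, SE 0.116, edgeR adjusted p = 1.56e-07) and 2.81-fold under the combination (log2 1.49, edgeR adjusted p = 6.15e-08).

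GABARAPL2 (ENSG00000034713.8, chr16:75566375-75577881, plus strand), another protein of that type, changed least among the called members. It read 48.9, 45.9 and 47.2 CPM in control and 61.5, 56.6 and 59.1 CPM with lurbinectedin. The combination gave 57.0, 53.8 and 54.7 CPM, and teriflunomide 52.3, 49.0 and 45.5 CPM. Lurbinectedin and combination libraries lay above control, and teriflunomide libraries overlapped it. GABARAPL2 rose 1.25-fold under lurbinectedin (log2 0.32, SE 0.0951, edgeR adjusted p = 0.00796). That call was lost with library size as the only scaling (log2 0.08, edgeR adjusted p = 0.637) and with no filter on low counts (log2 0.24, edgeR adjusted p = 0.204). Under the combination its log2 fold change was 0.22 (SE 0.0950, edgeR adjusted p = 0.0525). It was called without teriflunomide replicate 3 (edgeR adjusted p = 0.0175), a library in neither group compared. GABARAPL2 was also called with a filter of 1 CPM in 3 libraries (edgeR adjusted p = 0.0174) and with only the groups compared (0.0284). The same held without both libraries of highest mitochondrial share (edgeR adjusted p = 0.0114) and with DESeq2 (DESeq2 adjusted p = 0.0269).

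Summed per kb of exon over the 7 listed ATG8 genes, expression was 43.2 ± 0.480 CPM per kb in control and 84.3 ± 5.54 with lurbinectedin (SD, n = 3). It was 47.2 ± 1.72 with teriflunomide and 82.3 ± 3.34 with the combination. MAP1LC3B supplied 38.0% of the control sum and 48.3% of the lurbinectedin sum, and GABARAPL1 supplied 7.48% and 9.66%. The share of GABARAPL2 was 36.4% in control and 23.3% with lurbinectedin. Among the others, GABARAP made up 14.4% and 9.95%, and MAP1LC3A 3.37% and 8.33%. MAP1LC3C had no counts. These sums and shares are descriptions with no test.

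**Figure D2:**
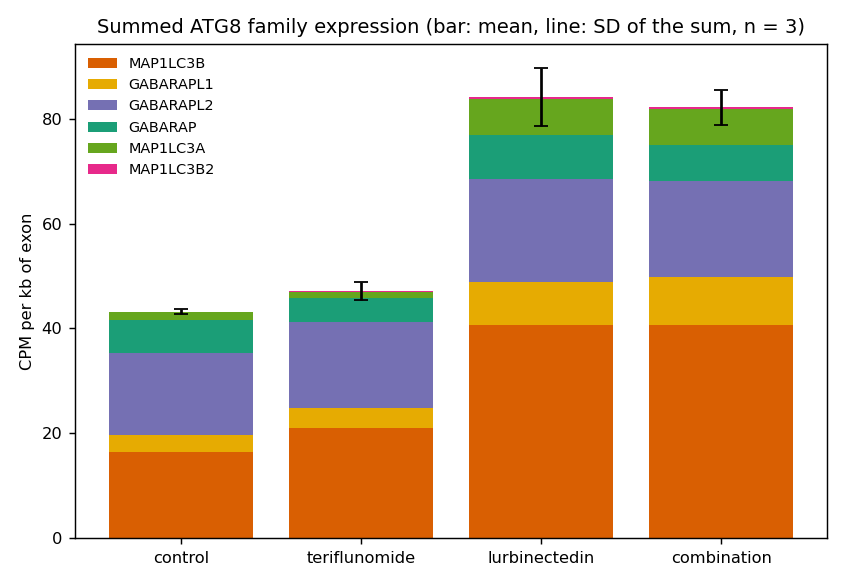
Summed ATG8 family expression in CPM per kb of exon (vertical axis) in the 4 groups (horizontal axis), each bar split by gene in the order of the legend and the line showing the SD of the sum, n = 3. The sum is 43.2 in control and 84.3 with lurbinectedin, and MAP1LC3B is the broadest block in each group.

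Both receptors rose. SQSTM1 (ENSG00000161011.20, chr5:179806398-179838078, plus strand) encodes p62, which binds ubiquitinated cargo and LC3. It read 62.4, 63.1 and 64.2 CPM in control and 239, 205 and 225 CPM with lurbinectedin. The combination gave 188, 205 and 213 CPM, and teriflunomide 70.2, 61.1 and 35.1 CPM. The lurbinectedin-treated libraries lay above all others, and teriflunomide replicate 3 had the lowest reading of the 12. SQSTM1 rose 3.53-fold under lurbinectedin (log2 1.82, SE 0.187, edgeR adjusted p = 9.02e-07) and 3.20-fold under the combination (log2 1.68, SE 0.186, edgeR adjusted p = 2.39e-06). MRNIP on the opposite strand shares 1582 bases with its exons, 21.0% of their length, and averaged 10.95 CPM in control and 29.9 CPM with lurbinectedin.

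OPTN (ENSG00000123240.17, chr10:13099449-13138308, plus strand) encodes optineurin, a receptor that TBK1 phosphorylates in mitophagy. It read 11.7, 11.97 and 12.9 CPM in control and 20.2, 18.8 and 22.9 CPM with lurbinectedin. Teriflunomide libraries read 18.7, 18.8 and 26.4 CPM and combination libraries 24.1, 25.2 and 27.1 CPM. Every treated library lay above every control library, and the combination libraries lay above those of lurbinectedin alone. OPTN rose 1.69-fold under lurbinectedin (log2 0.76, SE 0.146, edgeR adjusted p = 0.000347) and 2.08-fold under the combination (log2 1.06, SE 0.145, edgeR adjusted p = 1.86e-05).

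PINK1 (ENSG00000158828.8, chr1:20633458-20651511, plus strand) encodes the kinase that marks damaged mitochondria. It read 14.3, 12.8 and 13.1 CPM in control, 16.8, 13.8 and 18.8 CPM with lurbinectedin, and 17.4, 16.9 and 20.7 CPM with the combination. Teriflunomide libraries read 22.1, 22.7 and 17.5 CPM. Lurbinectedin replicate 2 fell inside the control range, and the combination libraries all lay above it. The log2 fold change was 0.29 under lurbinectedin (SE 0.148, edgeR adjusted p = 0.0886) and PINK1 rose 1.37-fold under the combination (log2 0.45, SE 0.147, edgeR adjusted p = 0.0142). The combination call was lost with library size as the only scaling (edgeR adjusted p = 0.253), with no filter on low counts (0.0535), without control replicate 2 (0.0556) and without combination replicate 3 (0.0638). The lurbinectedin value was called in 5 of 21 alternatives, among them without teriflunomide replicate 3 (edgeR adjusted p = 0.0407) and without lurbinectedin replicate 2 (0.0413). PINK1-AS on the opposite strand shares 1907 bases, 39.5% of the PINK1 exon length, and averaged 14.3 CPM in control, 31.6 CPM with lurbinectedin and 28.6 CPM with the combination. Its part in the PINK1 counts was not tested.

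Teriflunomide alone called 2 of the 10 members, OPTN and PINK1, both higher, against 6.01% of all genes tested (3.88% higher and 2.13% lower). OPTN rose 1.74-fold (log2 0.80, SE 0.145, edgeR adjusted p = 0.00715) and PINK1 1.55-fold (log2 0.63, SE 0.146, edgeR adjusted p = 0.0249). Teriflunomide and control libraries did not overlap for either gene, nor for BECN1, MAP1LC3B and GABARAPL1, which were not called. Without teriflunomide replicate 3, the log2 fold changes were 0.62 for OPTN (edgeR adjusted p = 0.00200) and 0.74 for PINK1 (edgeR adjusted p = 0.00159), and 1555 of all genes tested were called in place of 1002. The PINK1 call was lost without any single control library (edgeR adjusted p = 0.0819, 0.115 and 0.113 without replicates 1, 2 and 3) and without teriflunomide replicate 2 (0.0706). It was also lost with library size as the only scaling (edgeR adjusted p = 0.199) and with a replicate block (0.0599). With only the 2 groups in the fit neither was called (edgeR adjusted p = 0.0587 for OPTN and 0.0748 for PINK1).

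Of the rest, MAP1LC3B had a log2 fold change of 0.35 under teriflunomide (SE 0.116, edgeR adjusted p = 0.0841) and GABARAPL1 one of 0.27 (edgeR adjusted p = 0.163). Without teriflunomide replicate 3 the MAP1LC3B value was 0.28 (edgeR adjusted p = 0.117). MAP1LC3B was called without combination replicate 3 (edgeR adjusted p = 0.0472), a library in neither group compared. It was also called without both libraries of highest mitochondrial share (0.28, edgeR adjusted p = 0.0229). BECN1 had 0.20 and GABARAPL2 0.05, and the conjugation genes ATG7 and ATG5 had -0.32 and -0.06. SQSTM1 had -0.19 and ULK1 -0.11, and these 2 values turned to 0.05 and 0.11 without teriflunomide replicate 3. The median of the 10 was 0.12, against 0.03 over all genes tested.

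**Figure D3:**
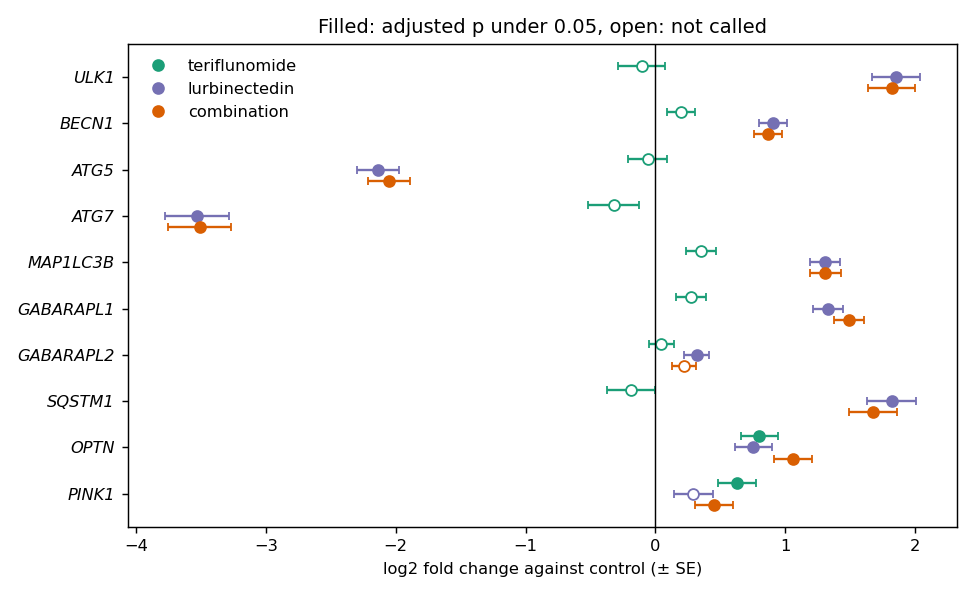
Log2 fold change against control (horizontal axis, whiskers SE) of the 10 members (vertical axis) for teriflunomide, lurbinectedin and the combination, all set against the same control libraries. Filled points have an edgeR adjusted p under 0.05. ATG5 and ATG7 lie left of 0 under lurbinectedin at -2.14 and -3.53. All other members lie right of it, PINK1 as an open point at 0.29.

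The combination called 9 of 10 members against control, 7 higher and 2 lower, against 68.4% of all genes tested (34.1% higher and 34.4% lower). Here PINK1 was called and GABARAPL2 was not. The median log2 fold change was 0.96, against 0.04 over all genes tested. Scaling by library size alone put that last median at -0.13, with 41.0% of all calls higher in place of 49.8%.

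Adding teriflunomide to lurbinectedin gave no called member, and none had an unadjusted p under 0.05 in edgeR. DESeq2 also called 0 of 10. Over all genes tested edgeR called 0%, with 2599 genes at an unadjusted p under 0.05, and DESeq2 called 584 genes. The 95% intervals bound the differences. For MAP1LC3B the log2 difference was 0.00 (interval -0.25 to 0.25), for BECN1 -0.04 (-0.27 to 0.19) and for ULK1 -0.03 (-0.41 to 0.34). The interval of SQSTM1 was -0.53 to 0.24 around -0.14, and those of ATG5 and ATG7 were -0.26 to 0.44 and -0.61 to 0.65. For GABARAPL1 it ran from -0.08 to 0.40, for GABARAPL2 from -0.30 to 0.11 and for PINK1 from -0.16 to 0.47. OPTN had the largest difference, 0.30 (unadjusted p = 0.0532, edgeR adjusted p = 0.328), and was called at 0.31 without teriflunomide replicate 3 (edgeR adjusted p = 0.0473), a library in neither group compared. Over all genes tested that alternative called 2067.

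Adding lurbinectedin to teriflunomide called 7 of 10 members, against 70.9% of all genes tested (35.2% higher and 35.8% lower). ULK1 (log2 1.92, 3.80-fold), SQSTM1 (1.86), GABARAPL1 (1.22), MAP1LC3B (0.96) and BECN1 (0.67) rose, and ATG5 (-1.99) and ATG7 (-3.19) fell, with edgeR adjusted p of 7.72e-05 or less. OPTN (0.26, edgeR adjusted p = 0.121), GABARAPL2 (0.17, 0.116) and PINK1 (-0.18, 0.281) were not called. Without teriflunomide replicate 3 OPTN was called at 0.43 (edgeR adjusted p = 0.00178) and PINK1 at -0.29 (edgeR adjusted p = 0.0443).

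The interaction, teriflunomide's effect with lurbinectedin present minus its effect without, was called for 0 of 10 members by edgeR and by DESeq2, against 0.258% of all genes tested in edgeR (0.036% higher and 0.222% lower). In edgeR 1726 of the 16683 genes tested had an unadjusted p under 0.05 in either direction. Among them were 3 members, all negative. They were OPTN (-0.50, SE 0.203, adjusted p = 0.412), PINK1 (-0.47, SE 0.207, adjusted p = 0.443) and MAP1LC3B (-0.35, SE 0.163, adjusted p = 0.480). Without both libraries of highest mitochondrial share, MAP1LC3B (-0.38, edgeR adjusted p = 0.0358) and PINK1 (-0.52, edgeR adjusted p = 0.0460) were called. That alternative was chosen after the data were seen, and over all genes tested it called 1839, against 43 with all libraries.

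Per kb of exon, the order of the members differed between groups. In control MAP1LC3B (16.4 CPM per kb) and GABARAPL2 (15.7) stood highest with overlapping libraries, followed by SQSTM1 (8.39), BECN1 (6.28), ATG5 (5.29) and GABARAPL1 (3.23). Then came PINK1 (2.78), ULK1 (2.49) and OPTN (2.38), each overlapping its neighbour, and ATG7 was lowest at 1.25. With lurbinectedin SQSTM1 (29.6) stood second to MAP1LC3B (40.7) and above GABARAPL2 (19.6) and BECN1 (11.8). ULK1 (9.004) and GABARAPL1 (8.15) overlapped, as did OPTN (4.01) and PINK1 (3.40), and ATG5 (1.201) and ATG7 (0.107) were lowest. In control ATG5 was thus the fifth of 10 and under lurbinectedin the ninth. With the combination the order was that of lurbinectedin except that GABARAPL1 (9.10) and ULK1 (8.79), which overlapped, changed places.

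ATG5 and ATG7 are also the members with the longest genes. They span 280 and 285 kb of genome, whereas the other 8 span 10.7 kb (GABARAPL1) to 38.9 kb (OPTN). Nuclear genes tested were put into 5 bins of equal number by span. Under lurbinectedin the median log2 fold change was 0.69, 0.62, 0.28, -0.36 and -1.86 from the shortest bin to the longest, and in the longest bin, above 82.9 kb, 83.6% of genes were called lower. ATG5 at -2.14 lay near the median of its bin and ATG7 at -3.53 under it, while ULK1 at 1.85 and SQSTM1 at 1.82 lay well above their bin's 0.28. GABARAPL2 at 0.32 lay under its bin's 0.62. Across the 16651 nuclear genes Spearman's rho between span and log2 fold change was -0.572 under lurbinectedin, -0.546 under the combination and 0.219 under teriflunomide. Genes are not independent replicates, so these are descriptions.

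The same held within the pathway. Over the 63 tested autophagy genes other than the members, rho was -0.744 under lurbinectedin, -0.704 under the combination and 0.301 under teriflunomide. With the members included, 18 listed genes fell in the longest bin, of which 17 were called lower under lurbinectedin and 1 higher. The bins from 5.26 to 16.3 kb and from 16.3 to 35.9 kb held 17 and 18 listed genes, and in each 12 were called higher and 1 lower. Of all nuclear genes tested, 56.9% were called higher and 12.3% lower in the first of these bins, and 44.6% and 21.2% in the second. From 35.9 to 82.9 kb, 5 of 19 listed genes were called higher and 9 lower, against 21.2% and 49.1% of all nuclear genes tested.

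**Figure D4:**
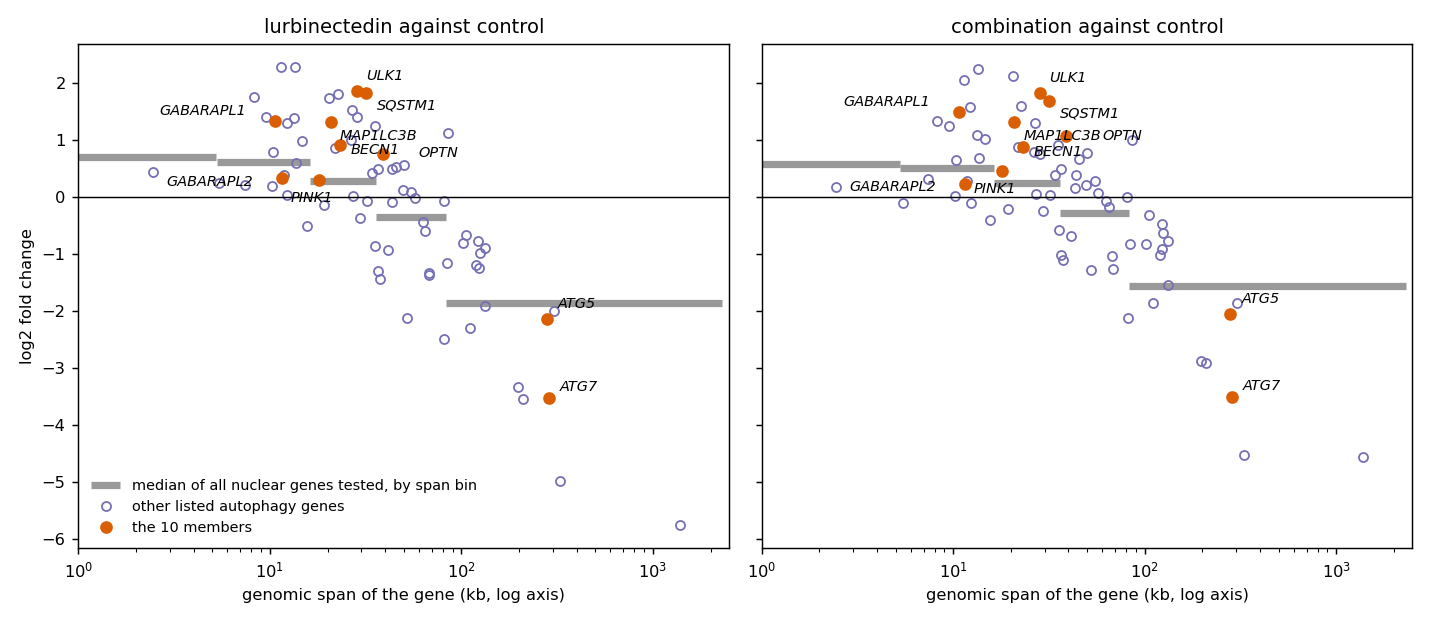
Log2 fold change (vertical axis) against genomic span in kb (horizontal log axis) under lurbinectedin and the combination, which share the control libraries. Orange points are the 10 members, open circles the other 63 tested autophagy genes and grey bars the median of all nuclear genes tested in each span bin. ATG5 and ATG7 sit at 280 and 285 kb, at -2.14 and -3.53 under lurbinectedin.

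The pathway around the members was read from a list of 66 further genes in 9 roles, of which 63 were tested. Under lurbinectedin 23 were called higher and 26 lower, against 36% and 35.7% of all genes tested, and their log2 fold changes had a median of -0.02. Under the combination 22 were called higher and 23 lower, against 34.1% and 34.4% of all genes tested. Scaling by library size alone gave 15 higher and 30 lower, and 17 higher and 27 lower. The counts by role that follow stand against the same all-gene shares under lurbinectedin. In the ULK1 complex ATG101, a stabilising subunit, rose (log2 1.74) and the scaffold RB1CC1 fell (-1.26), among 3 tested. Of 7 lipid kinase partners of BECN1 2 rose and 4 fell. The falls included UVRAG, a subunit of the complex that acts on maturing autophagosomes and endosomes, at -4.98, and the regulator AMBRA1 at -3.34. UVRAG averaged 34.4 CPM in control and 1.08 CPM with lurbinectedin, and AMBRA1 49.1 and 4.85 CPM.

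Of 8 further conjugation genes 4 rose and 3 fell. The protease ATG4C (-2.49) and ATG10 (-1.996), the E2-like enzyme for ATG12, fell together with ATG5 and ATG7. Of 3 further ATG8 genes 2 rose, MAP1LC3A (2.27) and MAP1LC3B2 (1.39, edgeR adjusted p = 0.0250), the near-copy of MAP1LC3B. In lipid supply 6 of 8 rose and 2 fell, including opposite moves of the paired lipid transfer genes ATG2A (1.80) and ATG2B (-1.17).

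Among the other 4 receptors TOLLIP rose (1.24), and NBR1 (-0.93), CALCOCO2 (-0.87) and TAX1BP1 (-0.67) fell, while SQSTM1 and OPTN rose. NBR1 averaged 81.0 CPM in control and 42.6 CPM with lurbinectedin. In mitophagy 1 of 9 further genes rose, TBK1 (0.55), and 5 fell, among them BCL2L13 (-0.81), a receptor on the outer mitochondrial membrane.

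At fusion with lysosomes 2 of 10 genes rose and 5 fell, led by YKT6 (1.39), a SNARE, and VPS41 (-3.54), a subunit of the HOPS tether. Of 11 lysosomal genes and regulators 4 rose, among them the calcium channel gene MCOLN1 (2.28), and 3 fell, among them the transcription factor gene FOXO1 (-2.31). Under teriflunomide 3 of the 63 were called, against 6.01% of all genes tested (3.88% higher and 2.13% lower). STX17 (0.64, edgeR adjusted p = 0.00699), an autophagosomal SNARE, and ATG4A (0.54, edgeR adjusted p = 0.0357) rose, and the mitophagy receptor gene BNIP3 fell by 0.63 (edgeR adjusted p = 0.00152). In the combination against lurbinectedin none of the 63 was called by edgeR, with 15 at an unadjusted p under 0.05. DESeq2 called 2 of the 58 to which it gave an adjusted p. Without teriflunomide replicate 3 edgeR called 12 of the 63 and 2067 of all genes tested.

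**Figure D5:**
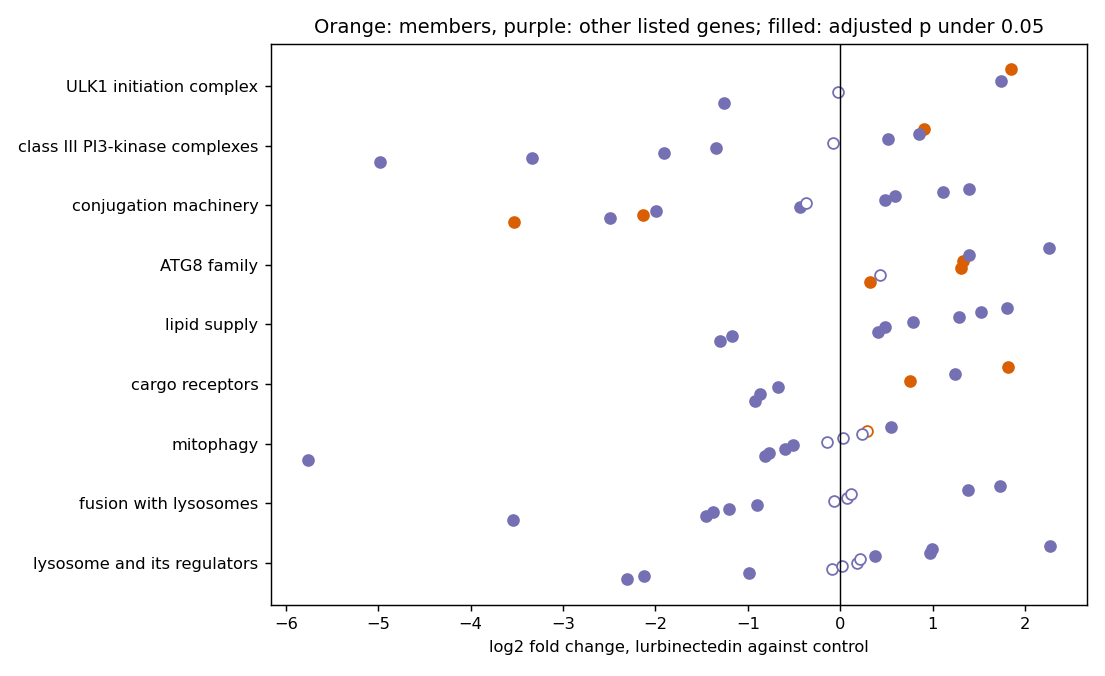
Log2 fold change under lurbinectedin against control (horizontal axis) of every tested autophagy gene, by role (vertical axis), with members in orange and the others in purple, filled where the edgeR adjusted p was under 0.05. Rises and falls occur in 8 of the 9 roles, and the ATG8 family has no fall.

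The patterns most like those of 2 members were read over the 12 libraries as Pearson's r of log2 CPM. For SQSTM1 they were CD2BP2 (0.998) and CSNK1D (0.998), and for GABARAPL1 they were DACT1 (0.995) and IL21-AS1 (0.991). The 12 points fall into libraries with and libraries without lurbinectedin, which every gene here shares.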

How the data were processed

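Gene expression was measured by RNA sequencing in 12 libraries. The authors deposited unnormalised counts of reads for each gene, made with fastp 0.23.2, STAR 2.7.9 and featureCounts from Subread on hg38, per the submitters' processing notes. Strand use, the treatment of multi-mapping reads and the annotation release are not given in the sources used here. For 37318 gene identifiers GENCODE 29 holds the same version, and all 37318 had its coordinates. Symbols matched 60507 identifiers (99.8%).

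Counts were filtered with filterByExpr, scaled by TMM and fitted with edgeR 4.0.16 (quasi-likelihood, robust, 1 mean per group, all 12 libraries) in R 4.3.3. The biological coefficient of variation was 14.5%. Standard errors come from the F statistic. The script was tested on simulated data. Precision depended on the spread between libraries as well as on total counts of 23206414 to 33222162.

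The members and the gene lists were chosen with earlier results of these data known. Named genes are all members, for each role at most 2 further genes with the smallest adjusted p under lurbinectedin, genes called in the teriflunomide, combination against lurbinectedin or interaction contrasts, and the 2 nearest patterns of SQSTM1 and GABARAPL1. TAX1BP1, TOLLIP, TBK1 and the genes in the other observations were named after their values were seen. Of the genes that met the rule, 1 is not reported here. Per-kb levels divide CPM by the deposited exon length. Alternatives were DESeq2 size factors, library size only, no filter, 1 CPM in 3 libraries, a replicate block, only the groups compared, DESeq2 1.42.0, mitochondrial genes left out, an adjusted p under 0.01, each library left out and, chosen after the data were seen, both libraries of highest mitochondrial share left out. Replicate numbers were not treated as pairs in the main fit.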

Additional observations from a re-analysis of the deposited data

Results flagged for a closer look

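BNIP3, which encodes a mitophagy receptor, was the only autophagy gene on the list whose teriflunomide effect differed by test with and without lurbinectedin. It read 175, 176 and 170 CPM in control, 104, 113 and 120 CPM with teriflunomide, 124, 124 and 118 CPM with lurbinectedin, and 132, 136 and 125 CPM with the combination. Every treated library lay under every control library, and the combination libraries lay above those of either drug alone. The interaction was 0.73 on the log2 scale (SE 0.121, edgeR adjusted p = 0.0219). It ranged from 0.68 to 0.88 over 20 alternatives and was called in 9 of them. The call was lost with library size as the only scaling (edgeR adjusted p = 0.0977), with a replicate block (0.105) and without any single control or lurbinectedin library, teriflunomide replicates 1 or 2, or combination replicate 1 (edgeR adjusted p = 0.0516 to 0.123). Without teriflunomide replicate 3 the value was 0.78 (edgeR adjusted p = 0.000518).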

How the results depend on the processing

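Over the 1250 alternative values of single members, 1186 kept direction and side of the threshold, 30 changed sign, 20 gained a call and 14 lost one. The counts of called members under lurbinectedin, the combination and the combination against teriflunomide stayed within 1.5 times of 9, 9 and 7 in every alternative run. No sign change touched a called value, and the cause of each change was not tested.

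Under teriflunomide 2 members were called, against 1 at an adjusted p under 0.01, 1 with library size as the only scaling, 0 with only the groups compared, 1 to 3 leaving out 1 library (3 without combination replicate 3) and 3 without both libraries of highest mitochondrial share. Of the 63 other genes 3 were called, against 1 with library size only, 5 with DESeq2, 1 to 5 leaving out 1 library (5 when teriflunomide replicate 3 was dropped, 1 when control replicate 3 was) and 11 without both, an alternative chosen after the data were seen. In the combination against lurbinectedin, 0 to 1 members were called leaving out 1 library (1 without teriflunomide replicate 3) and 1 without both. Of the other listed genes, 1 of 65 tested was called with no filter and 2 of 58 with DESeq2. Of the 63, 0 to 12 were called leaving out 1 library (12 without teriflunomide replicate 3) and 19 without both. In the interaction 2 members were called without both. Of the 63, 1 was called, against 0 at an adjusted p under 0.01, 0 with library size only, 0 to 2 leaving out 1 library (2 without teriflunomide replicate 3) and 7 without both. The calls over all genes tested moved with these counts. Under teriflunomide they went from 1002 to 265 with library size only, 1890 with DESeq2, 1555 without teriflunomide replicate 3 and 2757 without both. For the same last 2 alternatives they went from 0 to 2067 and 3640 in the combination against lurbinectedin. In the interaction they went from 43 to 616 and 1839.

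Same-numbered libraries of different groups did not deviate together: over 18 pairs the correlation of deviations ran from -0.40 to 0.14, and 1 pair was over 0.1. Over 36 pairs with different numbers it ran from -0.21 to 0.36, and 7 pairs were over 0.1. With a replicate block 1 member was called under teriflunomide (PINK1 lost, edgeR adjusted p = 0.0599), 0 of the 63 others in the interaction, and MAP1LC3B in the combination against lurbinectedin was -0.0010.

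The values that changed sign were small. Under teriflunomide, ULK1 was 0.11 and SQSTM1 0.053 without both libraries, GABARAPL2 was -0.027 with library size only, and leaving out 1 library ULK1 ran from -0.27 to 0.11, SQSTM1 from -0.39 to 0.052 (both highest without teriflunomide replicate 3) and GABARAPL2 from -0.0021 to 0.095. In the combination against lurbinectedin, ULK1 was 0.046 with library size only, 0.030 without both and -0.15 to 0.029 leaving out 1 library, and BECN1 was 0.017 with library size only and -0.14 to 0.026 leaving out 1 library. Leaving out 1 library, ATG5 ran from -0.11 to 0.27, ATG7 from -0.22 to 0.22 and MAP1LC3B from -0.11 to 0.11, the last being -0.11 without both. In the interaction, ULK1 was -0.083 and SQSTM1 -0.20 without both, and GABARAPL1 was 0.041 with library size only. Leaving out 1 library there, ULK1 ran from -0.14 (without teriflunomide replicate 3) to 0.24, SQSTM1 from -0.19 (without teriflunomide replicate 3) to 0.25 and ATG5 from -0.045 (without combination replicate 1) to 0.34.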

Other observations

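Lysosomal genes, named after their values were seen, did not move as 1 group under lurbinectedin. LAMP1, a lysosomal membrane protein gene, averaged 124 CPM in control and 247 CPM with lurbinectedin (log2 0.996, edgeR adjusted p = 2.50e-06), while LAMP2 averaged 73.2 and 68.8 CPM (log2 -0.09, edgeR adjusted p = 0.467). The protease gene CTSB stood at 139 and 140 CPM (log2 0.02), CTSL at 30.1 and 34.8 CPM (log2 0.21) and CTSD at 54.1 and 70.3 CPM (log2 0.38, edgeR adjusted p = 0.0285). Among genes for regulators of lysosomal transcription, TFE3 rose by 0.97 (31.1 to 60.98 CPM) and TFEB fell by 2.13 from 1.42 CPM. FOXO3 fell by 0.98, from 46.4 to 23.5 CPM.

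The lipid-supply genes WIPI1 and WIPI2, which encode related phosphoinositide-binding proteins, went opposite ways: WIPI1 averaged 2.98 CPM in control and 1.19 CPM with lurbinectedin (log2 -1.30, edgeR adjusted p = 0.000133), and WIPI2 75.5 and 106 CPM (log2 0.48, edgeR adjusted p = 0.00260).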
